A study of Mus musculus with 2 samples.

Results

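The vascular endothelial growth factor (VEGF) genes and their receptors divide into signals made by tissue cells and sensors carried by vessels. VEGF-A, the principal growth factor of blood vessels, binds the tyrosine kinase receptors encoded by Flt1 and Kdr, of which the Kdr product carries most of the signal and the Flt1 product binds the ligand tightly and holds it back. VEGF-C and VEGF-D are the ligands of the Flt4 product, the receptor of lymphatic vessels, and the neuropilins Nrp1 and Nrp2 are co-receptors for VEGFs and for class 3 semaphorins. Angiopoietin-1, the product of Angpt1, acts on the Tek receptor and stabilises vessels. In the gut wall a dense capillary bed and blind-ended lymphatics lie just below the epithelium.

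The 10 genes examined were 5 ligands (Vegfa, Vegfb, Vegfc, Vegfd and Angpt1) and 5 receptors or co-receptors (Kdr, Flt1, Flt4, Nrp1 and Nrp2), taken by name from the gene tables of 2 single-cell RNA libraries of mouse colon. All 10 were among the 17809 genes of the wild-type library. The reporter library held 9 of them among its 15972 genes and had no row for Flt4. The wild-type library came from C57BL/6 mice, in which sorted epithelial cells and sorted EpCAM- CD45- cells were mixed before loading. The reporter library came from Pdgfra-H2B-eGFP mice, which carry a nuclear green fluorescent protein under control of the Pdgfra locus, and was made from sorted GFP-positive mesenchymal cells, with 114 immune and 52 epithelial cells by their leading genes that entered no comparison. Cells of 3 female mice, 8 to 12 weeks old, were pooled per library, and the wild-type library was made with version 3 and the reporter library with version 2 of the droplet kit.

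The wild-type library held 7495 cells with a median of 2804 genes and the reporter library 4409 cells with a median of 1381 genes, and 1 cell barcode occurred in both. The values are corrected counts, which are molecule counts adjusted by the authors to a common depth, with median totals of 8972 per wild-type cell and 3150 per reporter cell. There was 1 library per group and no assignment of cells to mice, so no comparison had a replicate and no test was run. The level of a gene in a class is its corrected count averaged over the cells, given with the share of cells above 0 and the exact 95% binomial interval of that share, which covers counting error only. Cells are not replicates, so intervals that do or do not overlap are no test of a difference between classes. Differences are called by size alone, at 2-fold or more between class means after 0.01 was added to each, and the first count of called members in each comparison is set beside the share of all genes past the same size. Classes came from clustering without these 10 genes and their pathway lists, and carry the ending "-like" because they were named from marker genes.

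The endothelial classes are described first, by the marker lists that also named them, so these levels are no independent check. The 506 blood endothelial-like cells had a summed mean level of 80.5 corrected counts over 10 blood endothelial markers, against 1.26 in the 6271 non-endothelial cells of named classes. The 40 lymphatic endothelial-like cells had 217 over 7 lymphatic markers, against 0.107 in the blood endothelial-like cells. Within the blood endothelial-like cells, 199 were capillary-like, 66 arterial-like and 93 venous-like, and 148 remained without a subtype name. In a second clustering of 733 endothelial cells, sub-clusters of 91, 66 and 30 cells also carried fibroblast or epithelial markers and were left unnamed. The lymphatic cluster held 142 cells before this step. A cluster of 100 cells with markers of both pericytes and endothelium was also left unnamed. In the reporter library no cluster was endothelial, and its table held 6 of the 10 blood endothelial markers.

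The promoters of the 3 VEGF receptor tyrosine kinases are shown because these genes were counted almost exclusively in endothelial cells. Each sequence is the 250 bases before the RefSeq transcription start, on the sense strand of GRCm38.p6. The 5-letter core bound by ETS factors (GGAAG, or CTTCC on the other strand) is in capitals. RefSeq starts can differ from the GENCODE starts of the next paragraph, and the Flt4 window lies inside the GENCODE span of its gene. The Kdr window lies at chr5:75978456-75978705 on the minus strand, that of Flt1 at chr5:147726012-147726261 on the minus strand and that of Flt4 at chr11:49609429-49609678 on the plus strand.
Kdr: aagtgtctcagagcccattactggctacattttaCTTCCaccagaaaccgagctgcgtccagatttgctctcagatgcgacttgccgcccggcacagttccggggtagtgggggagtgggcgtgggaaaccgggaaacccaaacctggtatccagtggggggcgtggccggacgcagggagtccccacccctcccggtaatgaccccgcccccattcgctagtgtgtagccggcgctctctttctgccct
Flt1: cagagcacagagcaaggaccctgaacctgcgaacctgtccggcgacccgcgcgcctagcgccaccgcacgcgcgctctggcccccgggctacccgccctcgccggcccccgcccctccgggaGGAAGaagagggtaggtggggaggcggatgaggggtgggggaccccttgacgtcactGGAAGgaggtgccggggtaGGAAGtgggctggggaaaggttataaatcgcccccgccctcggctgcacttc
Flt4: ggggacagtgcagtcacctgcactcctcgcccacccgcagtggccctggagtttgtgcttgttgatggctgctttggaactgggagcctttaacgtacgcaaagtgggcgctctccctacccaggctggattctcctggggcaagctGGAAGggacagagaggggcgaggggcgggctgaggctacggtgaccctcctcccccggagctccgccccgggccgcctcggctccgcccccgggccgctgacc
The core occurred 3 times in the Flt1 window and 1 time each in those of Kdr and Flt4. It is a common word, present in 64.1% of 32851 promoter windows of this length, and 3 or more copies were found in 10.7% of them. Windows were found for 9 of the 10 genes.

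On GRCm38 (GENCODE M21) all 10 are protein-coding genes. Kdr lies at chr5:75932827-75978458 and Flt1 at chr5:147561604-147726011, both on the minus strand. Flt4 lies at chr11:49609263-49652739, Nrp1 at chr8:128358604-128503363 and Nrp2 at chr1:62703285-62818695, on the plus strand. Of the ligands, Vegfa lies at chr17:46016993-46032369, Vegfb at chr19:6982473-6987651 and Angpt1 at chr15:42424723-42676977 on the minus strand, and Vegfc at chr8:54077606-54187096 and Vegfd at chrX:164373378-164402650 on the plus strand.

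The first comparison asked where the receptors were expressed. In blood endothelial-like cells Kdr, Flt1, Flt4 and Nrp1 were each at least 2-fold higher than in non-endothelial cells, a call made for 7.07% of the 15868 genes compared. Flt1 had a mean of 11.6 corrected counts in blood endothelial-like cells and 0.0381 in non-endothelial cells, 305-fold apart, and was above 0 in 98.2% (96.7 to 99.2) and 1.51% of cells. Kdr had means of 6.12 and 0.0179, 343-fold apart, and was above 0 in 85.6% (82.2 to 88.5) of blood endothelial-like cells. Both receptor transcripts were found together in 429 of 506 cells, Flt1 alone in 68, Kdr alone in 4 and neither in 5.

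Flt4 was much lower in blood vessels than in lymphatics. It had a mean of 0.294 in blood endothelial-like cells, 185-fold above the 0.00159 of non-endothelial cells, and was above 0 in 21.5% (18.0 to 25.4) of them. In the 2593 epithelial cells, taken as the background, Flt4 was above 0 in 0.231%, Kdr in 1.08% and Flt1 in 1.31%, at a median of 3204 genes per cell against 2079.5 in blood endothelial-like cells. Of all corrected counts in named cells, blood endothelial-like cells held 96.1% for Flt1, 92.2% for Kdr and 37.1% for Flt4, and the 40 lymphatic endothelial-like cells held a further 60.4% for Flt4.

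The neuropilins were not limited to vessels. Nrp1 had a mean of 4.56 in blood endothelial-like cells, 8.36-fold above the 0.546 of non-endothelial cells, but 46.9% of its corrected counts lay in crypt bottom fibroblast-like (CBFs-like) cells and 40.3% in blood endothelial-like cells. Nrp2 was at 0.931 in blood endothelial-like and 1.28 in non-endothelial cells, a log2 ratio of -0.46, where the median of all genes compared was -0.56. Of the 10 members, 3 were 2-fold or more lower in blood endothelial-like cells, near the share of all genes, 31.9%. These were the ligands Vegfb, Vegfd and Angpt1, with Vegfb at 0.0553 against 0.301. Vegfd and Angpt1 had 3 and 2 corrected counts in all 506 cells, against means of 0.122 and 0.0896 outside the endothelium, ratios of 0.0485 (0.00998 to 0.142) and 0.0441 (0.00533 to 0.160).

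**Figure D1:**
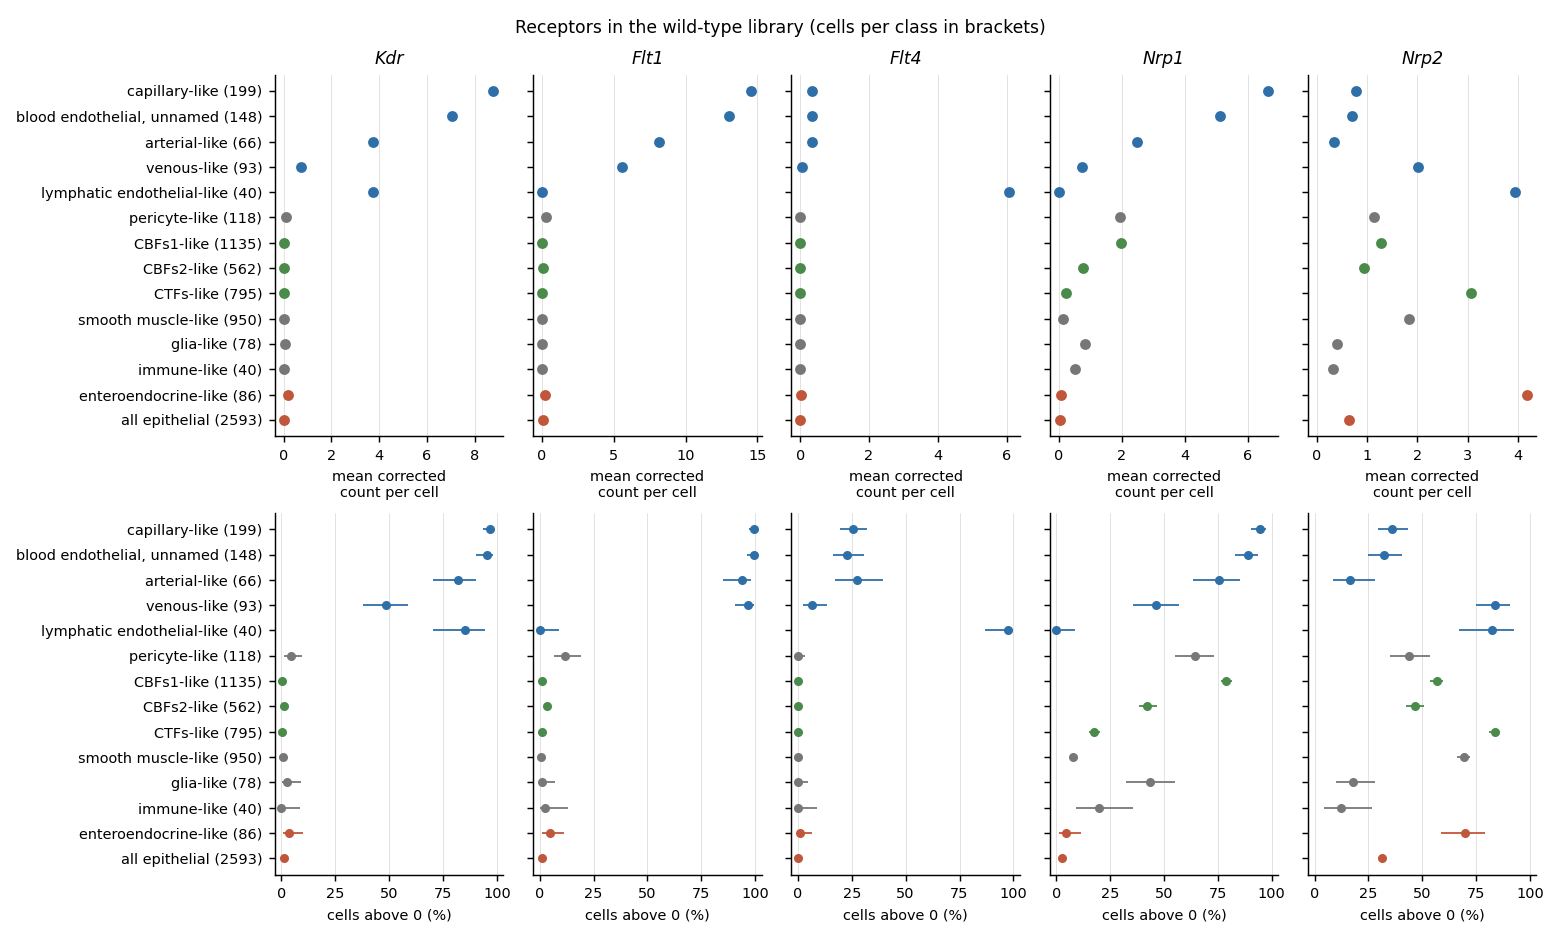
Mean corrected count per cell (upper row, horizontal axis, a separate scale for each gene) and share of cells above 0 in percent with exact 95% binomial intervals (lower row) for the 5 receptors in classes of the wild-type library, with the number of cells in brackets. Blue marks endothelial, green fibroblast, red epithelial and grey other classes. Kdr and Nrp1 descend from 8.76 and 6.63 in capillary-like to 0.710 and 0.742 in venous-like cells, while Flt4 and Nrp2 reach 6.08 and 3.95 in lymphatic endothelial-like cells.

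Along the blood vessels the receptors were graded. Kdr was ordered from high to low as capillary-like (mean 8.76), unnamed blood endothelial (7.05), arterial-like (3.73) and venous-like (0.710). The share of cells with Kdr was 97.0% (93.6 to 98.9), 95.3% (90.5 to 98.1), 81.8% (70.4 to 90.2) and 48.4% (37.9 to 59.0), so that the intervals of the first 2 classes overlapped and those of arterial-like and venous-like cells did not. Venous-like cells had a median of 2630 and capillary-like cells of 2029 genes per cell, whose part in the result was not tested. Flt1 kept the same order, with means of 14.6, 13.0, 8.18 and 5.56, but was above 0 in 93.9 to 99.5% of the cells of every blood class. In venous-like cells 46 of 93 therefore had Flt1 without Kdr, against 5 of 199 capillary-like cells.

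The neuropilins differed most in venous-like cells. Nrp1 was at 6.63 in capillary-like, 5.11 in unnamed, 2.48 in arterial-like and 0.742 in venous-like cells, above 0 in 94.5% (90.3 to 97.2) of the first and 46.2% (35.8 to 56.9) of the last. Nrp2 was highest in venous-like cells, at 2.02 and above 0 in 83.9% (74.8 to 90.7), against 0.784 and 36.2% (29.5 to 43.3) in capillary-like, 0.709 and 32.4% in unnamed and 0.333 and 16.7% (8.62 to 27.9) in arterial-like cells. Flt4 was at 0.345 to 0.348 in capillary-like, unnamed and arterial-like cells and at 0.0645 in venous-like cells, where 6.45% (2.40 to 13.5) were above 0. The name capillary-like depended on the clustering. With 15 principal components, a clustering resolution of 0.8 or the members kept among the clustering genes, no cells took that name, and 326 to 340 blood endothelial cells without a subtype name had Kdr between 8.14 and 8.33. With a sub-clustering resolution of 0.5 no cells took the name arterial-like. Kdr in venous-like cells was between 0.707 and 0.730 under all 6 alternatives compared.

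Lymphatic endothelial-like cells had another receptor set. Flt4 was at 6.08 and above 0 in 97.5% (86.8 to 99.9) of 40 cells, 20.6-fold above blood endothelial-like cells, and Nrp2 was at 3.95, 4.24-fold higher. Flt1 and Nrp1 had no corrected count in any lymphatic endothelial-like cell, of the 40 left after mixed sub-clusters were set aside. This allows a share of up to 7.5% by a floor of 3 cells and of up to 8.81% by the exact interval. Against a floor of 3 counts over the 40 cells, Flt1 was at least 155-fold and Nrp1 at least 60.8-fold lower than in blood endothelial-like cells. Kdr was shared by both vessel types, at 3.73 and above 0 in 85.0% (70.2 to 94.3) of lymphatic endothelial-like cells, the level of arterial-like cells. Flt4 and Kdr were found together in 33 of the 40 cells, as were Flt4 and Nrp2.

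Of the 8 members with enough counts in this comparison, Vegfb, Flt4 and Nrp2 were called higher, where 9.19% of 9571 genes were, and Vegfa, Vegfc, Flt1 and Nrp1 were called lower, where 26% of genes were. The Vegfb call rested on 6 corrected counts in lymphatic endothelial-like cells. The Vegfa call rested on 1 corrected count, a ratio of 0.0885 (0.00222 to 0.501), and without the sub-clustering that set aside mixed cells Vegfa did not differ in this direction (log2 ratio 0.05). Without that step Kdr moved from -0.72 to -2.38 and Flt4 from 4.32 to 2.67 on the log2 scale.

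Outside the endothelium Flt1 and Kdr were low. Of 562 CBFs2-like cells 3 had both, 17 Flt1 alone and 3 Kdr alone. Pericyte-like cells had Flt1 at 0.288, above 0 in 11.9% (6.64 to 19.1), and Kdr at 0.0763, above 0 in 4.24% (1.39 to 9.61), with a summed blood endothelial marker level of 4.81 against 1.76 in fibroblast and smooth muscle-like cells. The part of carried-over endothelial RNA in this value was not tested. Nrp1 in stroma was highest in CBFs1-like (1.98) and pericyte-like cells (1.96), lower in glia-like (0.833) and CBFs2-like cells (0.778) and lowest in crypt top fibroblast-like (CTFs-like, 0.245) and smooth muscle-like cells (0.127). The intervals of its share of cells did not overlap between CBFs1-like (79.0%, 76.5 to 81.4), CBFs2-like (42.3%, 38.2 to 46.6) and CTFs-like cells (17.6%, with an upper bound of 20.4).

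Nrp2, unlike Nrp1, was highest among fibroblasts in the crypt top class, at 3.07 in CTFs-like cells, 1.28 in the CBFs1-like and 0.940 in the CBFs2-like class. It was also found in smooth muscle-like cells (1.83, 69.4% of cells) and, within the epithelium, in enteroendocrine-like cells, the hormone-secreting lineage. There the mean was 4.17 and the share 69.8% (58.9 to 79.2), against 43.8% (40.2 to 47.4) in goblet-like, 40.1% (36.6 to 43.7) in transit-amplifying-like and 10.5% in enterocyte-like cells. When every cell was thinned to 2000 corrected counts, Nrp2 kept its highest epithelial share in enteroendocrine-like cells, 40.7% against 14.2% in goblet-like cells.

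**Figure D2:**
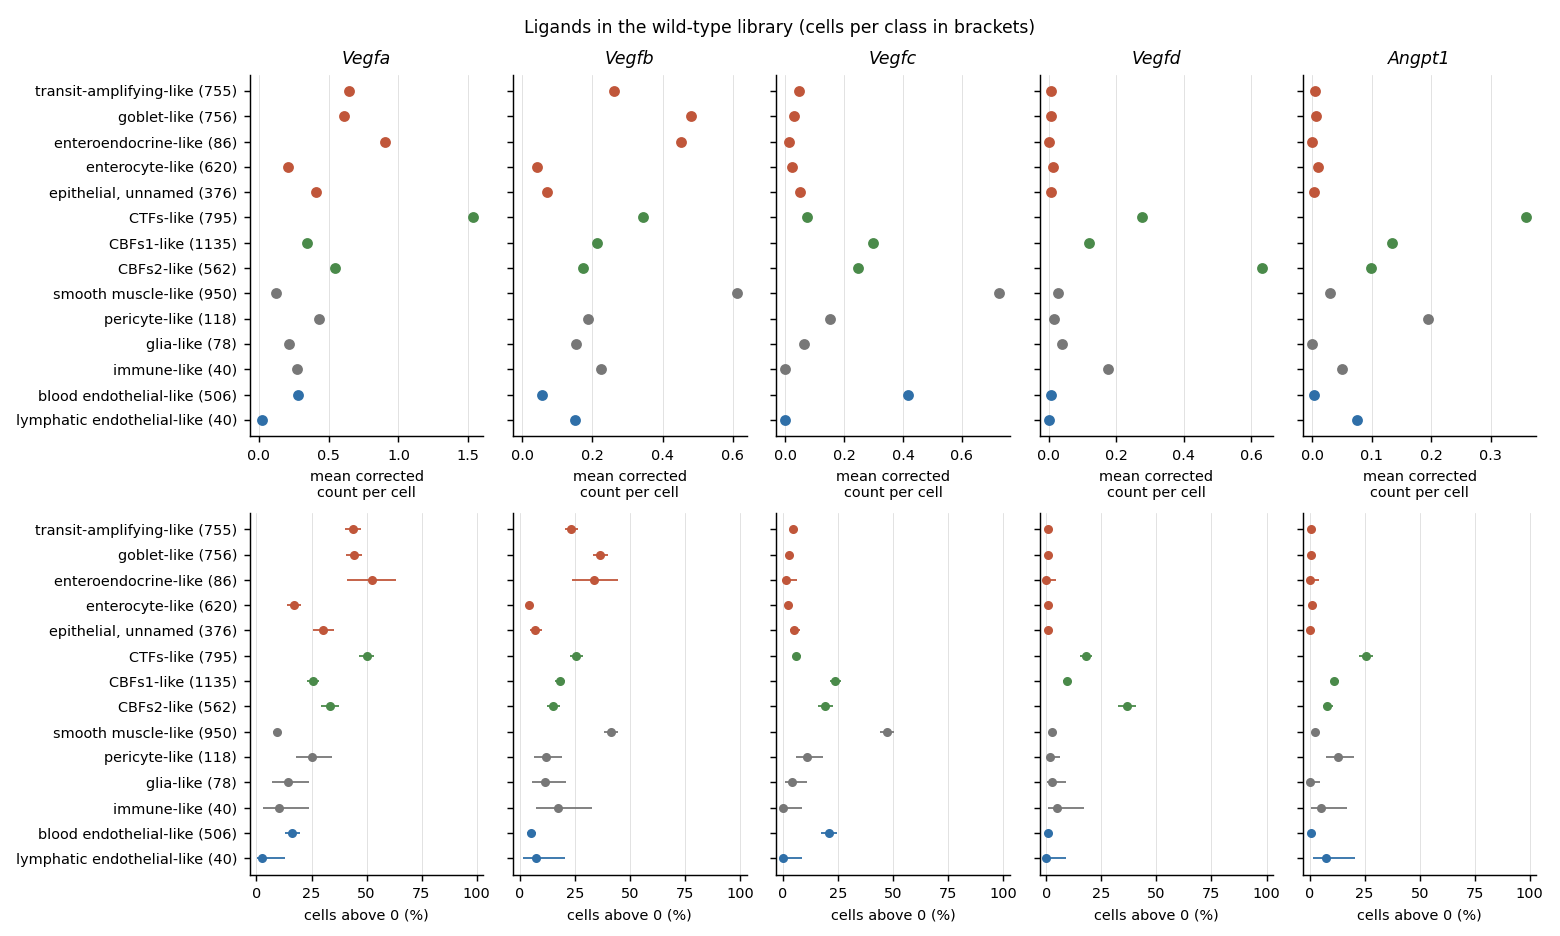
Mean corrected count per cell (upper row, horizontal axis, a separate scale for each gene) and share of cells above 0 in percent with exact 95% binomial intervals (lower row) for the 5 ligands in the classes of the wild-type library, with the number of cells in brackets. Red marks epithelial, green fibroblast, blue endothelial and grey other classes. Vegfa peaks in CTFs-like (1.53), Vegfb in smooth muscle-like (0.611), Vegfc, among the classes drawn, in smooth muscle-like (0.726), Vegfd in CBFs2-like (0.633) and Angpt1 in CTFs-like cells (0.358).

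The second question was which cells expressed the ligands. Vegfa was highest in CTFs-like cells, the fibroblasts with high Pdgfra, at a mean of 1.53 and above 0 in 50.1% (46.5 to 53.6). Enteroendocrine-like cells followed at 0.907, transit-amplifying-like cells at 0.648, goblet-like cells at 0.607 and CBFs2-like cells at 0.546. The shares of cells in CTFs-like and enteroendocrine-like cells (52.3%, 41.3 to 63.2) overlapped, and so did those of transit-amplifying-like (43.7%, 40.1 to 47.3) and goblet-like cells (44.3%, 40.7 to 47.9). CTFs-like cells differed in the amount per positive cell, 3.06 corrected counts against 1.23 to 1.73 in the named epithelial classes, and reached 17 in single cells. Thinned to 2000 corrected counts per cell, the CTFs-like mean of 0.382 remained above the 0.136 of transit-amplifying-like cells. Enteroendocrine-like cells went to 0.0930, below transit-amplifying-like cells. That value rests on 86 cells and a single random thinning, so the rank of enteroendocrine-like cells is left undecided.

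Epcam, an epithelial surface protein, was at 24.6 in epithelial cells and was also above 0 in 50.7% of CTFs-like (mean 0.789), 38.5% of fibroblast and smooth muscle-like (0.647) and 73.1% of blood endothelial-like cells (1.16). Within the last class the share was 85.4% in capillary-like, 83.8% in unnamed, 75.8% in arterial-like and 28.0% in venous-like cells. In the same order these classes had medians of 2029, 2002.5, 2075.5 and 2630 genes per cell. The parts of carried-over epithelial RNA and of the depth correction in the ligand levels outside the epithelium were not tested. Within the blood vessels Vegfa was at 0.541 in unnamed, 0.318 in arterial-like, 0.226 in venous-like and 0.106 in capillary-like cells. In lymphatic endothelial-like cells Vegfa was 1 corrected count in 40 cells, below the floor of 3.

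Outside the endothelium, the lower end of the Vegfa order was formed by smooth muscle-like cells at 0.126 (9.16% of cells) and by the mature absorptive cells. Enterocyte-like cells were at 0.208 and above 0 in 16.9% (14.1 to 20.1). They held 2 clusters, 408 cells led by Sptssb with Vegfa at 0.265 and 21.6% (17.7 to 25.9), and 212 cells led by Atp12a with 0.0991 and 8.02% (4.74 to 12.5), intervals that did not overlap. An unnamed epithelial class of 376 cells was between these and the transit-amplifying-like cells, at 0.412.

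Vegfb, a ligand of the Flt1 product, was highest in smooth muscle-like cells (0.611, 41.5% of cells, 38.3 to 44.7), then in goblet-like (0.480, 36.5%, 33.1 to 40.1), enteroendocrine-like (0.453) and CTFs-like cells (0.343), and, outside the endothelium, lowest in enterocyte-like cells (0.0419, 4.19%). Vegfc was highest among non-endothelial cells in smooth muscle-like cells (0.726, 47.1%, 43.8 to 50.3), followed by the CBFs1-like (0.296) and the CBFs2-like class (0.246), with 0.0730 in CTFs-like cells. Vegfc was also found in larger blood vessels, at 1.23 in arterial-like and 1.03 in venous-like cells, above 0 in 47.0% (34.6 to 59.7) and 55.9% (45.2 to 66.2). In capillary-like cells it was at 0.0603 and 5.03% (2.44 to 9.05).

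Fibroblast-like cells held most of the Vegfd and Angpt1 counts: CBFs-like and CTFs-like cells had 63.6% and 28.4% of Vegfd and 36.7% and 50.3% of Angpt1. Vegfd was at 0.633 in CBFs2-like cells, above 0 in 36.7% (32.7 to 40.8), at 0.275 in CTFs-like and at 0.118 in CBFs1-like cells. Angpt1 was at 0.358 in CTFs-like cells, above 0 in 25.5% (22.5 to 28.7), at 0.195 in pericyte-like cells, 0.134 in the CBFs1-like and 0.0996 in the CBFs2-like class. Within CTFs-like cells 13.0% (10.7 to 15.5) had both Vegfa and Angpt1, 295 Vegfa without Angpt1 and 100 Angpt1 without Vegfa.

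The epithelium as a whole differed from fibroblast and smooth muscle-like cells in the specialised ligands and not in Vegfa or Vegfb. Vegfa was at 0.505 in 2593 epithelial and 0.592 in 3442 fibroblast and smooth muscle-like cells, a log2 ratio of -0.23, and Vegfb at 0.251 and 0.346, a log2 ratio of -0.45. The median of all 15493 genes compared was 0.44, which lies above both. Vegfc was 10.2-fold, Vegfd 29.2-fold and Angpt1 24.5-fold lower in the epithelium, as were Nrp1 (22.4-fold) and Nrp2 (2.76-fold). These were 5 of the 9 members with enough counts, where 17% of genes were called lower, and no member was called higher, where 31.8% of genes were.

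**Figure D3:**
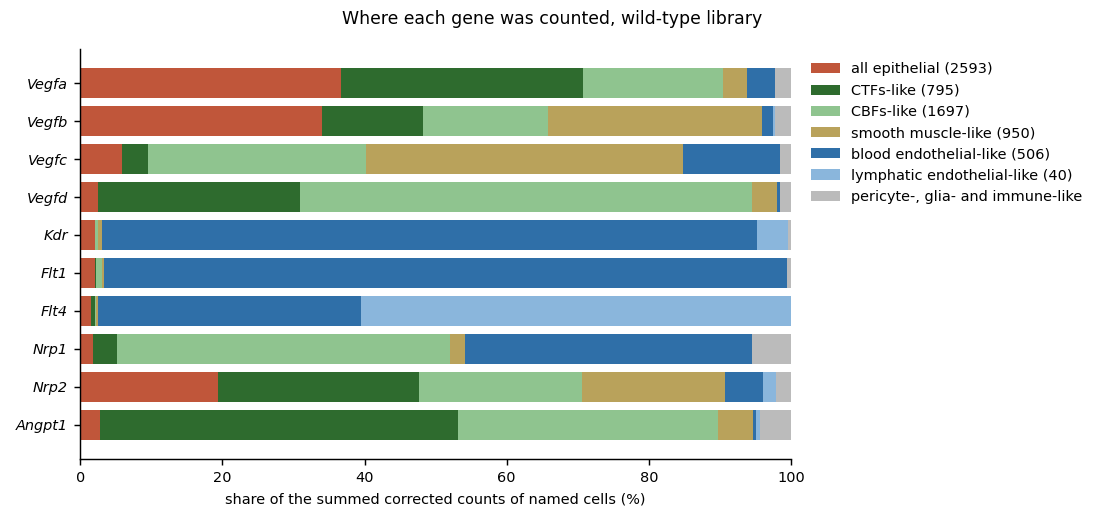
Share (in percent, horizontal axis) of the summed corrected counts of each of the 10 genes that lay in each group of classes, among 6817 named cells of the wild-type library. The shares also reflect how many cells of each class were sorted, given in brackets. Blood endothelial-like cells hold over 90% for Kdr and Flt1, whereas for Vegfa epithelial and CTFs-like cells hold 36.7% and 34.1%.

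Within the epithelium Vegfa and Vegfb were lower in mature absorptive cells, and no other ligand was called. From transit-amplifying-like to enterocyte-like cells Vegfa was 3.11-fold, Vegfb 6.22-fold and Nrp2 3.57-fold lower, 3 of the 7 members with enough counts, where 29% of 12620 genes were called lower. No member was called higher, where 10.3% of genes were, and the median of all genes was -0.45. Without cells above 10% mitochondrial counts the log2 ratio of Nrp2 was -0.85, below 2-fold. Of 6 oxygen-sensing genes, 3 were called higher in enterocyte-like cells. Hif1a, the oxygen-regulated transcription factor subunit, was at 1.98 in enterocyte-like and 0.156 in transit-amplifying-like cells (12.7-fold), Epas1, its paralogue, at 0.727 and 0.174, and Egln3, a prolyl hydroxylase induced by low oxygen, at 0.273 and 0.0702. Of the 2 enterocyte-like clusters, the 408 cells led by Sptssb had Hif1a at 1.06, Epas1 at 0.576 and Egln3 at 0.179. The 212 cells led by Atp12a had 3.74, 1.02 and 0.453. No gene of the list was called lower and its median was 0.87, where 10.3% of all genes were called higher. Vhl (0.148 against 0.156), Egln1 (0.308 against 0.350) and Arnt were not called.

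The third comparison set crypt top fibroblasts against crypt bottom fibroblasts in the wild-type library and against all other fibroblasts in the reporter library. In the wild-type library 795 CTFs-like and 1697 CBFs-like cells were compared, and Vegfa (1.53 against 0.413, 3.71-fold), Angpt1 (0.358 against 0.123, 2.92-fold) and Nrp2 (3.07 against 1.17, 2.63-fold) were higher in CTFs-like cells, 3 of the 8 members with enough counts, where 5.1% of 13042 genes were called. Vegfc (0.0730 against 0.279, 3.83-fold) and Nrp1 (0.245 against 1.58, 6.46-fold) were lower, where 8.01% of genes were called. Vegfb and Vegfd were not called, with log2 ratios of 0.75 and -0.07. The CBFs-like cells were not uniform, since Vegfd was at 0.633 in the CBFs2-like and 0.118 in the CBFs1-like class, with CTFs-like cells between them.

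In the reporter library 638 CTFs-like cells were set against 3605 other fibroblasts, namely 852 CBFs2-like cells and 3 unnamed clusters in which 7 of 8 CBFs1 markers were 2-fold or more above CTFs-like cells. Against all other cells of the library, only 0, 1 and 2 of these markers passed the naming rule, so the clusters have no crypt bottom name. Their leading genes included Sbno2 and Cxcl2, C1qtnf3 and Wnt2, and Cxcl5 and Cxcl9, in that order. Angpt1 was higher in CTFs-like cells (0.116 against 0.0419, 2.77-fold), 1 of 7 members with enough counts, where 4.79% of 12480 genes were called. Vegfc (0.0157 against 0.0924, 5.89-fold), Vegfd (0.0219 against 0.0926, 4.22-fold) and Nrp1 (0.0768 against 0.353, 4.60-fold) were lower, where 5.02% of genes were called. With 0.1 added to the means in place of 0.01, only Nrp1 stayed past 2-fold, at a log2 ratio of -1.36, with Angpt1 at 0.61, Vegfc at -0.73 and Vegfd at -0.66. Nrp2 was at 0.513 and 0.292, a log2 ratio of 0.79. Against CBFs2-like cells alone the log2 ratio of Nrp1 was -0.26, below 2-fold, and that of Nrp2 was 1.55. The low Vegfd of this comparison came from the CBFs2-like cells at 0.295, because in the unnamed clusters Vegfd was between 0.0148 and 0.0557.

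The log2 ratios of the 2 libraries were furthest apart for Vegfd (-0.07 and -1.68) and Vegfa (1.87 and 0.38), the wild type first. In the reporter library, for Vegfa, CTFs-like cells were at 0.110, CBFs2-like cells at 0.142 and the unnamed clusters at 0.0415 to 0.0872. The sign of this ratio depended on the grouping, with log2 values of -0.37 with 15 principal components, -0.40 with the members kept among the clustering genes and -0.34 against CBFs2-like cells alone. The share of reporter cells with Vegfa was 9.56% (7.39 to 12.1) in CTFs-like and 11.2% (9.12 to 13.5) in CBFs2-like cells, intervals that overlapped. With both libraries thinned to 2000 corrected counts per cell, wild-type and reporter CTFs-like cells were at 0.382 and 0.0674, and CBFs2-like cells at 0.105 and 0.0927. Mouse line, sort, kit version and library cannot be told apart in this difference, which was not tested. Kdr and Flt1 had 5 corrected counts each in the 4243 fibroblasts of the reporter library.

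**Figure D4:**
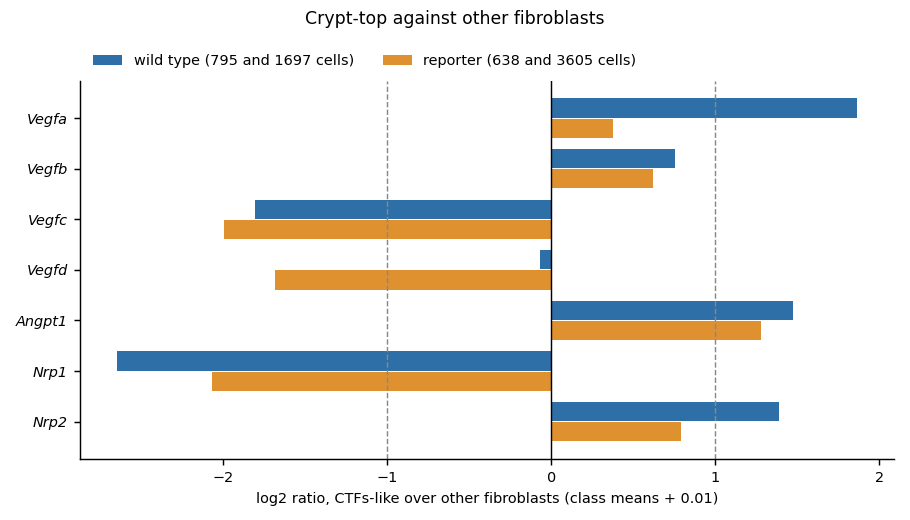
Log2 ratio of the mean corrected count in CTFs-like cells over that in CBFs-like cells (wild type, blue) or other fibroblasts (reporter, orange) for 7 members, after adding 0.01 to each mean. The dashed lines mark 2-fold, and there is 1 library per group, so the bars carry no error. Vegfc, Nrp1 and Angpt1 lie beyond the same line in both libraries, of which Nrp1 alone does so in the reporter library with 0.1 added, whereas Vegfa lies at 1.87 and 0.38.

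The other genes of the pathway were taken from 7 lists with 37 genes, all of them in the wild-type table. Among 6 receptors and partners, Tek, Tie1, Ptprb, Plxnd1 and Plxna2 were higher and Plxna1 lower in blood endothelial-like than in non-endothelial cells, where 7.07% and 31.9% of all genes were, with a list median log2 ratio of 3.46 against -0.56 for all genes. Tek, the angiopoietin receptor, was at 3.13 in venous-like, 1.48 in arterial-like and 1.19 in capillary-like cells, and at 0.738 in CBFs2-like cells. Ptprb, the phosphatase that restrains Tek, was at 5.84 against 0.0190, and Tie1, the partner of Tek, at 1.52 against 0.00765, with 2.2 in lymphatic endothelial-like cells.

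All 11 endothelial signalling and response genes were called higher in blood endothelial-like cells, where 7.07% of all genes were, with a list median of 3.39. They were spread over different vessels. Esm1, a VEGF-induced proteoglycan, was at 5.46 in capillary-like and 3.17 in arterial-like cells and had no corrected count in 93 venous-like or 40 lymphatic endothelial-like cells, so that it was at least 50.4-fold lower in the latter than in blood endothelial-like cells. Dll4, a Notch ligand of arterial and tip cells, was at 1.36 in arterial-like, 0.508 in capillary-like and 0.247 in venous-like cells. Rcan1, a feedback inhibitor of calcineurin, was at 8.87 in venous-like, 0.171 in capillary-like, 4.08 in glia-like and 1.23 in CBFs2-like cells. Against blood endothelial-like cells, 8 of 10 genes of the list with enough counts were called lower in lymphatic endothelial-like cells, where 26% of all genes were, and none higher, with a median of -2.20, or -1.71 with genes at 0 set to their bound. For 1 of the 8, Apln, that bound was below equality.

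Of the oxygen-sensing genes, Epas1 was at 5.12 in blood endothelial-like and 0.559 in non-endothelial cells, and at 3.54 in pericyte-like cells, while Vhl was lower (0.0435 against 0.122). Among the 3 other ligands, Pgf, a ligand of the Flt1 product, was at 0.153 in pericyte-like cells and 0.116 in the CBFs1-like class, and at 0.275 in immune-like cells, where 3 of 40 cells held its 11 corrected counts. Angpt2, the context-dependent antagonist of angiopoietin-1, was at 0.746 in pericyte-like and 0.338 in smooth muscle-like cells. Pgf was 7.30-fold lower in CTFs-like than in CBFs-like cells of the wild-type library and 3.79-fold lower than in the other fibroblasts of the reporter library. Angpt4 was higher, 3.56-fold and 8.11-fold. Reporter Pgf was at 0.0282 in CTFs-like and 0.0293 in CBFs2-like cells, so its difference came from the unnamed clusters (0.101 to 0.161). Wild-type Angpt4 rested on 35 corrected counts in CTFs-like cells, at 0.0440 against 0.0320 in CBFs2-like cells.

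The VEGF-C processing genes were sparse. Adamts3, the protease that activates VEGF-C, was at 0.112 in CTFs-like cells and 3.73-fold lower in CBFs-like cells of the wild-type library, but was not called in the reporter library, at 0.0125 against 0.0158. Ccbe1, its cofactor, did not exceed 0.0221 in the named wild-type classes. All 3 genes of the list were called lower in epithelial than in fibroblast and smooth muscle-like cells, where 17% of all genes were. Of the extracellular antagonists, Adamts1 was at 8.77 in pericyte-like, 6.45 in arterial-like and 5.12 in venous-like cells and at 1.05 in capillary-like cells, and Thbs1 was at 5.29 in goblet-like and 3.84 in CBFs2-like cells.

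The semaphorins that bind neuropilins had their own distribution. Sema3f was at 1.51 in CTFs-like against 0.164 in CBFs-like cells (9.23-fold) and Sema3c at 0.302 against 2.32 (7.70-fold lower), and both kept their direction in the reporter library (3.52-fold higher and 8.90-fold lower). Sema3a was at 0.938 in smooth muscle-like and 0.725 in lymphatic endothelial-like cells. In lymphatic endothelial-like cells Sema3a, Sema3d and Sema3f were called higher than in blood endothelial-like cells and Sema3c lower, 4 of the 4 genes with enough counts, where 9.19% of all genes were called higher and 26% lower, the Sema3c call resting on 1 corrected count.

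**Figure D5:**
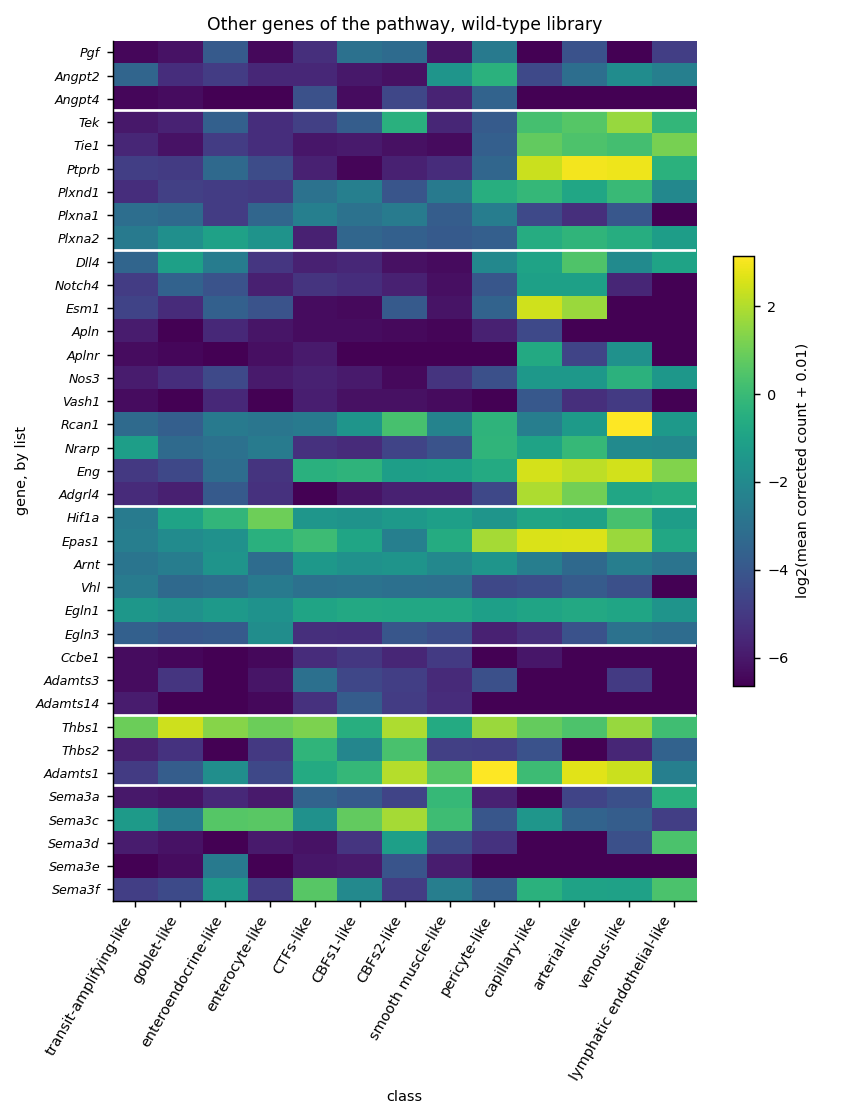
Level of the 37 pathway genes (vertical axis, in 7 lists divided by white lines) in 13 classes of the wild-type library (horizontal axis), as log2 of the mean corrected count plus 0.01. Receptors and signalling genes are brightest in the endothelial classes, Esm1 is dark in venous-like and lymphatic endothelial-like cells, and Sema3f and Sema3c are bright in different fibroblasts.

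The genes most like each member were sought over 13 named wild-type classes, by Pearson's r of log2 class means, as a description. Kdr was most like Cd300lg (r = 0.99), Egfl7 (0.99) and Mmrn2 (0.99), Flt1 most like Esm1 (0.97), Sox17 (0.96) and Srarp (0.95), and Flt4 most like Gpr182 (0.99), Ephb1 (0.99) and Klhl4 (0.98). Cd300lg and Egfl7 were themselves among the markers used to name endothelial classes. Vegfd was most like Gria3 (0.92), Mrc2 (0.92) and Lsp1 (0.91), and Angpt1 most like Gpx3 (0.93), Ifitm1 (0.92) and Tnc (0.88). For Vegfa the best value was 0.86, with Arl14ep. The classes share a library, and 13229 genes were compared.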

How the data were processed

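The authors aligned reads to mm10 with Cell Ranger and processed cells in Seurat 3.1 under R 3.6.2, per the labels, with SCTransform per the methods. The score values as deposited are whole numbers corrected by the authors to a common depth, and the deposited natural log values equal ln(1 + corrected count) of the same cells. Total corrected counts were 6120 to 16389 per wild-type and 2314 to 4432 per reporter cell. The depth sequenced is unknown. Cells were clustered in Seurat 5.3.0 under R 4.3.3 from ln(1 + corrected count), with 3000 variable features less the 10 members and 37 pathway genes, 30 principal components and resolutions of 0.45 and 0.3. Endothelial cells were clustered again with 15 components at resolution 0.8, chosen after their markers were seen. Clusters were named from marker lists, and 678 wild-type cells stayed unnamed. Scrublet called 7 and 5 cells, too few to have worked, so doublets were kept and, as an alternative, the 5% highest scores removed. Ratios used class means plus 0.01 and genes with 20 or more summed corrected counts, with Python 3.11.15, numpy 2.4.6, scipy 1.17.1, scanpy 1.11.5 and matplotlib 3.10.9. Ratios were tested on simulated data. Genes named are the members, the pathway lists and the 3 genes most like each member; members and lists were chosen with earlier results of these data known.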

Additional observations from a re-analysis of the deposited data

How the results depend on the processing

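Counts of called members were recomputed with 9 changes of clustering, filter or scale and, where they applied, with others chosen after seeing the data, and 133 of 136 stayed within 1.5-fold. Only the number called was compared, not which members were called. The change that removed Scrublet calls took out only 7 and 5 cells, and dropping the filter on low values alters no ratio by construction. In the reporter comparison a pseudocount of 0.1 left 0 members higher and 1 lower, as it shrinks ratios of low genes by construction, and CBFs2-like cells alone as the second group gave 2 higher, where the group itself differs. Of 550 member ratios, 491 moved little, 58 moved further and 1 was counted as reversed. Only ratios of 2-fold or more could be counted as reversed. The 1 was Vegfa in lymphatic against blood endothelial-like cells, at 0.0471 without endothelial sub-clustering, where mixed cells stay in the classes. Smaller ratios that changed sign, such as that of Vegfa in the reporter fibroblasts, are not in that count.

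With 1 library per group, there is no replicate to leave out and the spread between mice is unknown. No paired analysis was possible because the 2 libraries came from different mice of different lines. Scrublet called too few cells to have worked, and doublets were kept. In the 40 lymphatic endothelial-like cells, values resting on a few corrected counts (Vegfa, Vegfb and Sema3c) are limited by depth.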

Other observations

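A cluster of 100 wild-type cells that carried pericyte and endothelial markers together was left out of all comparisons. Its summed level was 63.8 over the 10 blood endothelial markers and 46.4 over the 8 pericyte markers, against 80.5 and 1.99 in blood endothelial-like cells and 4.81 and 54.9 in pericyte-like cells. It had a median of 3850 genes per cell, against 2079.5 in blood endothelial-like and 2102 in pericyte-like cells. Kdr was at 6.17 and above 0 in 95 of its cells (88.7 to 98.4%), Flt1 at 11.5 and above 0 in all 100, and Nrp1 at 4.63. Vegfc, which was at 0.417 in blood endothelial-like and 0.153 in pericyte-like cells, was at 0.760 in it.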
